A study of Mus musculus with 6 samples.

Results

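The RNA of 42 genes that carry cells through G2 and mitosis was compared between mouse leukaemia model cells edited at Clec12a and control cells. The genes were chosen by symbol from the deposited expression table as mitotic kinases, cyclins, regulators of the anaphase-promoting complex, condensin subunits, spindle factors and cytokinesis genes, without kinetochore genes. All 42 were among the 21515 genes of the table, and all 42 were among the 9830 genes tested. In knockout cells 38 of the 42 (90.5%) had a lower fitted level, against 54% of all genes tested, and none passed the adjusted threshold of 0.05, which 1.9% of all genes passed. The median log2 fold change of the 42 was -0.62. In simulated data with known changes, the test recovered 0% of genes changed 1.5-fold and 25.4% of those changed 2-fold. A gene that did not pass is therefore not shown to be unchanged.

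Entry into mitosis is driven by the kinase CDK1 bound to B-type and A-type cyclins, and is switched on by CDC25 phosphatases. Polo-like and Aurora kinases then build the spindle, condensin and topoisomerase II compact the chromosomes, and the anaphase-promoting complex, a ubiquitin ligase activated by CDC20, destroys cyclin B and securin so that the chromosomes part. Transcripts of these genes rise together late in the cell cycle, under the activator FOXM1 and the MuvB complex, so in a growing blood cell culture they are commonly read as signs of cells in G2 and mitosis. In bulk RNA, fewer cells in those phases and less RNA per cell cannot be told apart.

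The cells were bone marrow cells of C57BL/6 mice that carry, in both groups, the leukaemia fusion NUP98-NSD1 together with mutant NRASG12D, an active RAS form, by which they grow without limit in culture. Both groups also received the lentiviral vector L40C-CRISPR.EFS.dTomato, which holds Cas9 and a red reporter, with the T44 guide to Clec12a, a myeloid lectin receptor gene, for the knockout, and a lacZ guide, which has no mouse target gene, for the control. Single cells were sorted in triplicate and expanded, and sequencing gave 3 knockout libraries (replicates 1, 4 and 5) and 3 control libraries (replicates 6, 8 and 9). The labels' protocol gives a medium with 15% serum and, for 48 hours, 3 cytokines: 10 ng/mL of human IL-6, 6 ng/mL of murine IL-3 and 20 ng/mL of murine SCF. The labels do not say whether the libraries of a group come from separate clones. The p-values set the group difference only against the spread between these libraries, which may be technical or between clones.

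Values are FPKM, which scales the fragments of a gene to its length and to the size of the library. Clec12a itself stood at 169.7, 129 and 94.5 FPKM in knockout replicates 1, 4 and 5 and at 157, 246 and 280.1 FPKM in control replicates 6, 8 and 9. These ranges overlapped (limma, adjusted p = 0.1298). A small edit need not lower a transcript, so this level is no check of the labels in either direction. The sum of FPKM over all genes moved with the guide: it lay between 590211 and 699113 for the knockout and between 534440 and 554534 for the control. Of 9 myeloid and progenitor markers, 7 were at 1 FPKM or more in every library, Kit in some, and Flt3 in none; together they summed to 387 to 422 FPKM in knockout libraries and 413 to 591 in controls. Among them Cd33 was lower in every knockout library, at 31.3, 36.7 and 40.3 FPKM against 49.9, 68.95 and 117 FPKM (limma, adjusted p = 0.0902). Kit, a progenitor receptor, spread widely, at 0.736, 1.18 and 6.66 FPKM against 27.6, 8.03 and 0.715 FPKM. It was low in control replicate 9, the control nearest to the knockouts for the 42 genes, while Cd33 and Itgam were highest there. Cebpa had a higher mean in the knockouts, at 7.73, 21.97 and 5.45 FPKM against 6.08, 3.73 and 3.98 FPKM, with overlapping groups (limma, adjusted p = 0.184). All 5 B cell, all 5 T cell and all 5 stromal markers, 5 of 6 erythroid and 3 of 4 megakaryocyte markers stayed below 1 FPKM in every library. Summed levels of the erythroid markers were 0.846 to 2.23 FPKM in knockout libraries and 0.439 to 0.503 in controls, and those of the T cell markers were 0.308 to 0.728 and 0.0172 to 0.139. B cell markers summed to 0.114 to 0.2504 FPKM in knockout libraries and 0.0156 to 0.0821 in controls, and megakaryocyte markers to 1.201 to 1.86 and 0.216 to 2.17. Of 3 endothelial markers only Pecam1, which myeloid cells also express, reached 1 FPKM. The part of these markers and of the FPKM totals in the results was not tested.

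The promoters of these genes are shown first because many of these genes are known to be switched on through shared promoter elements. The cell cycle homology region, which MuvB binds, has the core TTTGAA or TTCGAA, and CCAAT boxes bind NF-Y. RefSeq promoter windows on GRCm38.p6, 250 bases before to 50 after the start, were found for 32 of the 42 genes. The cell cycle core, read on both strands, was present for 23 of those 32 genes (71.9%) against 21.7% of 27025 genes with a window. A CCAAT box on either strand was present for 25 of 32 (78.1%) against 41.1%, and both motifs lay in 1 window for 22 of 32 (68.8%) against 8.61%. The E2F core TTCCCGC, also read on both strands, was found for 1 of 32 (3.12%, Ncapg) against 5.29%. Below are the windows of the 4 genes with the cell cycle core and the lowest p in the comparison, with both motifs in capitals on whichever strand they fell; no match of one motif overlaps a match of the other in these windows.
Top2a (chr11:99024140-99024439, minus strand): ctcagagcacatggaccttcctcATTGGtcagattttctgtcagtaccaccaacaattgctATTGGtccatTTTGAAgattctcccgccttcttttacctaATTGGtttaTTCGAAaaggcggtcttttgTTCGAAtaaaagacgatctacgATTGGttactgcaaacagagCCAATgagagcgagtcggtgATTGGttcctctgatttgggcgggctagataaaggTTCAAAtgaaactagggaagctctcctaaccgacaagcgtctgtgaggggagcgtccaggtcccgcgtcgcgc
Prc1 (chr7:80294201-80294500, plus strand): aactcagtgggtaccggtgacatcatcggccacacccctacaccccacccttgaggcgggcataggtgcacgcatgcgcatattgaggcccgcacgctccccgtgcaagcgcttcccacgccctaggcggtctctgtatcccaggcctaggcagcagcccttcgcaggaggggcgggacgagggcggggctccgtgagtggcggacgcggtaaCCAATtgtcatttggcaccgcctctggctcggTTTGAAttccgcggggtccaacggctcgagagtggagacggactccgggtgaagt
Ckap2 (chr8:22185770-22186069, minus strand): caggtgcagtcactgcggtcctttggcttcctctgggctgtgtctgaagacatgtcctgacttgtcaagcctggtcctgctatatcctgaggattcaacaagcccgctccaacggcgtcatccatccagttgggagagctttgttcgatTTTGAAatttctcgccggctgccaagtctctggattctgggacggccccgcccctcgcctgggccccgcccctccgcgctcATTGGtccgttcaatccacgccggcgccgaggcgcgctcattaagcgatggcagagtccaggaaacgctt
Mki67 (chr7:135716330-135716629, minus strand): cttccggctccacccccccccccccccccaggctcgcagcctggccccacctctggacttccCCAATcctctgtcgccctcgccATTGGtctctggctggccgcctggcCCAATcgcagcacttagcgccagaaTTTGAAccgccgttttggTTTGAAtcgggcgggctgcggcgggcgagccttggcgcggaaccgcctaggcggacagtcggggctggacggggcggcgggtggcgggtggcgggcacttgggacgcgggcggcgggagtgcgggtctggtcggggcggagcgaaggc
Top2a held 4 cell cycle cores and 6 CCAAT boxes in its 300 bases, Mki67 held 2 and 3, and Prc1 and Ckap2 held 1 of each. Prc1 had a further window, shifted downstream, with the same core and box. The 23 genes with a core had a median log2 fold change of -0.65 between knockout and control, with 15 of 23 lower in every knockout library than in any control. The 9 genes with a window but no cell cycle core (Birc5, Ccnb1, Cks2, Melk, Ncaph, Nusap1, Pttg1, Tacc3 and Troap) had a median of -0.47, with 4 of 9 lower in that way. No window was found for Aurkb, Bora, Ccna2, Cdc25c, Cdca2, Foxm1, Incenp, Pbk, Smc4 and Tpx2, whose median was -0.63, with 8 of 10 lower in that way. Over all genes tested the median was -0.06, and 21.8% were lower in that way. Whether genes with and without a core differed was not tested.

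Lower values were the rule across the 42 genes, though no single gene passed the test adjusted over all genes. Of the 42 genes, none fell and none rose at an adjusted p under 0.05 (limma on log2(FPKM + 1), Benjamini-Hochberg over 9830 genes), where 0.519% of all genes fell and 1.38% rose. At an unadjusted p under 0.05, 27 of 42 (64.3%) were lower and 1, Pttg1, was higher, against 15.9% and 12% of all genes. The groups did not overlap, with knockout lower, for 27 of 42 (64.3%) against 21.8% of all genes; with knockout higher they did not overlap for 1 of 42 against 14.5%. The remaining 14 overlapped. The lowest adjusted p was 0.0513, for Cdca2, and 18 of 42 (42.9%) were lower at an adjusted p under 0.1, against 5.95% of all genes. All genes tested had a median log2 fold change of -0.06.

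Summed over the 42 genes, the level was 2293, 2406 and 2287 FPKM in knockout replicates 1, 4 and 5 and 3222, 3416 and 2811 FPKM in control replicates 6, 8 and 9. Every knockout library was below every control library. As a share of all FPKM the genes made up 0.379%, 0.344% and 0.387% in knockout libraries and 0.603%, 0.616% and 0.511% in controls. Control replicate 9 was thus the nearest to the knockout libraries, and control replicate 8 the farthest. On the log2 scale the median deviation of the 42 genes from their own means was -0.21, -0.38 and -0.23 in knockout replicates 1, 4 and 5 and 0.36, 0.42 and 0.13 in control replicates 6, 8 and 9, while for all genes tested it lay between -0.05 and 0.05.

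**Figure D1:**
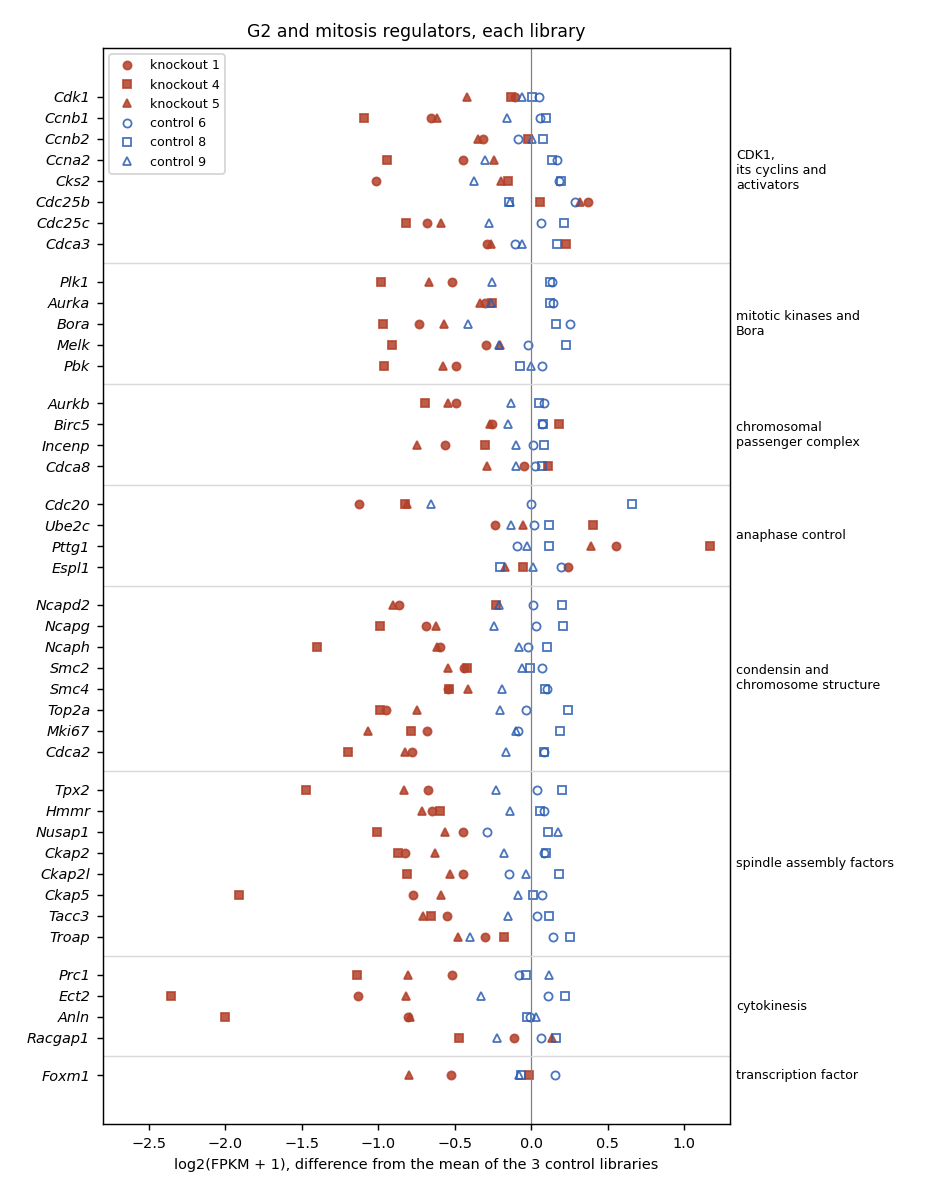
Each row is 1 of the 42 genes, grouped by role, and each point is 1 library (filled, knockout; open, control) as log2(FPKM + 1) minus the mean of the 3 control libraries. Filled points lie left of all open points for 27 genes, and Pttg1 is the 1 gene with every filled point to the right.

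Among CDK1, its cyclins and its activators, the B1 cyclin and the phosphatase CDC25C showed the largest differences in the deposited values. CDK1 and cyclin B2 differed little in those values. None of 8 passed, 7 of 8 were lower, and the median log2 fold change was -0.34. Ccnb1, which encodes cyclin B1 (chromosome 13, 100778650 to 100786570, GRCm38), was at 122, 89.7 and 125 FPKM in knockout replicates 1, 4 and 5 and at 200.4, 206 and 173 FPKM in control replicates 6, 8 and 9. All knockout values lay below all control values, and the mean was 58.2% of control (112 ± 19.6 against 193 ± 17.8 FPKM, SD, n = 3 each; limma, log2 fold change -0.79, SE 0.20, adjusted p = 0.0745). Cdc25c, whose phosphatase activates CDK1, was at 8.02, 7.18 and 8.604 FPKM in the knockouts and 14.1, 15.7 and 10.9 in controls, again without overlap (7.93 ± 0.715 against 13.6 ± 2.46 FPKM; limma, log2 fold change -0.70, SE 0.22, adjusted p = 0.1003).

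Cdk1 was among the most abundant of the genes, at 179, 176 and 144 FPKM in the knockouts and 199.9, 194 and 185 in controls. The knockout values were all lower, but the mean was still 86.2% of control (limma, log2 fold change -0.22, SE 0.18, adjusted p = 0.433; 95% interval -0.63 to 0.19). The ratio of Ccnb1 to Cdk1 within a library, chosen after the values were seen and not tested, was 0.681, 0.5099 and 0.8702 in knockout replicates 1, 4 and 5 and 1.002, 1.06 and 0.933 in control replicates 6, 8 and 9. It was below the control range in every knockout library. The ratio of Ccnb2 to Cdk1 lay between 0.678 and 0.845 for knockouts and between 0.712 and 0.825 for controls. Both ratios use deposited values. After the correction for transcript length and GC content given below, log2 fold changes were -0.78 for Ccnb1, -0.52 for Ccnb2 and -0.04 for Cdk1. Ccnb2, the other B-type cyclin, stood at 129.5 ± 16.6 against 151 ± 8.61 FPKM (-0.23 on the log2 scale, limma adjusted p = 0.414), with knockout replicate 4 inside the control range. Ccna2, cyclin A2, was at 43.3 ± 10.5 against 62.995 ± 11.1 FPKM and the CDK-binding subunit gene Cks2 at 72.8 ± 22.1 against 98.1 ± 20.7 FPKM, with overlapping groups for both. Cdca3, a trigger of mitotic entry, was at 94.1 ± 20.01 against 101 ± 10.6 FPKM. Cdc25b, a phosphatase that acts early in mitotic entry, was the 1 gene of this group with a higher mean (11.7 ± 1.44 against 9.75 ± 1.91 FPKM, log2 fold change 0.25, limma adjusted p = 0.472), and its groups overlapped.

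The 4 mitotic kinase genes and Bora, the gene of an Aurora A cofactor, were all lower, with a median log2 fold change of -0.67, and none passed. Plk1, the polo-like kinase of mitotic entry and spindle assembly (chromosome 7, 122159439 to 122169873), was at 69.4, 50.2 and 62.4 FPKM in knockout replicates 1, 4 and 5 and at 109.99, 109 and 83.5 FPKM in control replicates 6, 8 and 9. No knockout library reached the lowest control (60.7 ± 9.72 against 101 ± 14.99 FPKM; limma, log2 fold change -0.72, SE 0.20, adjusted p = 0.0847). Pbk, a mitotic kinase (chromosome 14, 65805837 to 65817822), was at 54.97, 39.4 and 51.8 FPKM against 81.7, 73.8 and 77.5 FPKM, likewise without overlap (limma, log2 fold change -0.67, SE 0.19, adjusted p = 0.0846). Bora, whose protein lets Aurora A activate PLK1, was at 22.2, 18.6 and 24.9 FPKM in the knockouts and 44.8, 42.03 and 27.9 in controls, where control replicate 9 was the closest to the knockout values (limma, log2 fold change -0.76, SE 0.23, adjusted p = 0.0974). Aurka, the Aurora A kinase of spindle poles, and Melk, a kinase gene of dividing cells, overlapped between groups. Aurka was at 97.9 ± 2.697 against 122 ± 18.4 FPKM (limma, adjusted p = 0.308) and Melk at 8.96 ± 2.44 against 12.6 ± 2.09 FPKM (limma, adjusted p = 0.255).

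The chromosomal passenger complex, which corrects kinetochore attachments and later directs cytokinesis, was uneven. Of its 4 genes none passed; Aurkb and Incenp did not overlap between groups, and Birc5 and Cdca8 did. Aurkb, its kinase (chromosome 11, 69045647 to 69051664), was at 70.6, 61.2 and 68.3 FPKM in knockout replicates 1, 4 and 5 and at 106, 103 and 91.1 FPKM in control replicates 6, 8 and 9 (66.7% of control; limma, log2 fold change -0.58, SE 0.17, adjusted p = 0.0934). Incenp, the scaffold (chromosome 19, 9872296 to 9899551), was at 46.9, 56.6 and 41.3 FPKM against 70.6, 74.3 and 65.3 FPKM (limma, log2 fold change -0.54, SE 0.19, adjusted p = 0.118). Birc5, which encodes survivin, was at 117, 159.7 and 117 FPKM against 148, 149 and 127 FPKM, and Cdca8, which encodes borealin, at 119, 132 and 100.04 FPKM against 125, 129 and 115 FPKM. For both, knockout replicate 4 was the highest of all 6 libraries, and the log2 fold changes were -0.11 (95% interval -0.56 to 0.33) and -0.08 (95% interval -0.49 to 0.34). The ratio of Incenp to Birc5 within a library, also chosen after the values were seen and not tested, was 0.3996, 0.354 and 0.354 in knockout replicates 1, 4 and 5 and 0.478, 0.499 and 0.515 in control replicates 6, 8 and 9.

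Anaphase genes were not alike: the activator Cdc20 was lower, securin was higher, and the E2 enzyme gene Ube2c and the separase gene Espl1 had fold changes near 0. None of the 4 passed. Cdc20, the activator of the anaphase-promoting complex (chromosome 4, 118432901 to 118437352), was at 55.1, 68.2 and 68.6 FPKM in knockout replicates 1, 4 and 5 and at 121, 192 and 76.6 FPKM in control replicates 6, 8 and 9. The controls spread widely, from just above the knockout values to 192 FPKM (63.97 ± 7.66 against 129.95 ± 58.2 FPKM; limma, log2 fold change -0.92, SE 0.31, adjusted p = 0.115). Pttg1, which encodes securin, the inhibitor of separase (chromosome 11, 43420250 to 43426251), was at 82.8, 128 and 73.9 FPKM in the knockouts and 52.5, 60.99 and 55.1 in controls, the opposite direction to the group. All knockout values were above all control values, with replicate 4 the highest (94.8 ± 28.8 against 56.2 ± 4.33 FPKM; limma, log2 fold change 0.71, SE 0.23, adjusted p = 0.108). Ube2c, which starts ubiquitin chains on cyclin B and securin, was at 183, 287 and 208 FPKM against 219, 234 and 197 FPKM (log2 fold change 0.04, 95% interval -0.46 to 0.53); its sign turned to -0.17 when libraries were scaled to equal totals. Espl1, the separase that cuts cohesin, was at 10.4, 8.298 and 7.58 FPKM against 10.05, 7.399 and 8.72 FPKM (0.00, 95% interval -0.50 to 0.51; -0.18 with equal totals).

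Condensin and chromosome structure genes were the most uniform of these roles in the deposited values. All 8 were lower, and in all 8 no knockout library reached the lowest control, against 21.8% of all genes. None passed, with adjusted p from 0.0513 to 0.124, and the median log2 fold change was -0.81. They were less alike after the correction for transcript length and GC content given below, from -0.11 for Smc2 to -0.88 for Ncaph. Cdca2, whose protein (Repo-Man) targets a phosphatase to chromosomes at mitotic exit (chromosome 14, 67676331 to 67715841), was at 37.6, 27.9 and 36.5 FPKM in knockout replicates 1, 4 and 5 and at 69.4, 69.3 and 58.1 FPKM in control replicates 6, 8 and 9. That made 51.8% of the control mean (34.01 ± 5.31 against 65.6 ± 6.49 FPKM; limma, log2 fold change -0.93, SE 0.19, adjusted p = 0.0513; 95% interval -1.37 to -0.50). Top2a, the topoisomerase II that untangles sister DNA (chromosome 11, 98992943 to 99024189), was at 43.8, 42.6 and 50.6 FPKM against 83.5, 101 and 74.1 FPKM, 52.9% of control (45.7 ± 4.32 against 86.3 ± 13.7 FPKM; limma, log2 fold change -0.90, SE 0.19, adjusted p = 0.05197; 95% interval -1.33 to -0.47). Mki67, the Ki-67 proliferation marker that coats mitotic chromosomes, was at 6.88, 6.31 and 5.02 FPKM against 10.9, 13.3 and 10.8 FPKM (limma, log2 fold change -0.84, SE 0.22, adjusted p = 0.0752).

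The condensin I subunit genes Ncapd2, Ncapg and Ncaph were at 63.4%, 56.6% and 55.2% of their control means. Ncapg was at 12.1, 9.703 and 12.8 FPKM against 20.7, 23.6 and 16.9 FPKM, and Ncaph at 25.2, 14.03 and 24.9 FPKM against 37.996, 41.4 and 36.5 FPKM. Knockout replicate 4 was the lowest for these 2 genes but the highest knockout for Ncapd2, at 24.4, 38.4 and 23.7 FPKM against 45.6, 52.1 and 38.9 FPKM. The ATPase subunit genes of both condensins were closer together: Smc2 was at 72.5, 73.4 and 67.4 FPKM against 104, 97.8 and 94.6 FPKM and Smc4 at 82.8, 82.98 and 90.5 FPKM against 130.04, 129 and 106 FPKM. Their log2 fold changes were -0.47 and -0.50 (limma, adjusted p = 0.121 and 0.121), and the ratio of Smc2 to Smc4, chosen after the values were seen, lay between 0.745 and 0.885 for knockouts and between 0.758 and 0.894 for controls.

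Spindle assembly genes were all lower, 7 of 8 without overlap, against 21.8% of all genes. Their median log2 fold change was -0.66, and none passed. Tpx2, the activator of Aurora A on spindle microtubules (chromosome 2, 152847964 to 152895321), was at 47.9, 27.2 and 42.9 FPKM in knockout replicates 1, 4 and 5 and at 79.2, 88.8 and 65.6 FPKM in control replicates 6, 8 and 9. Knockout replicate 4 was the lowest, and the mean was 50.5% of control (39.3 ± 10.8 against 77.9 ± 11.7 FPKM; limma, log2 fold change -0.99, SE 0.25, adjusted p = 0.07096). Within a library the ratio of Tpx2 to Aurka, chosen after the values were seen and not tested, was 0.491, 0.2697 and 0.4498 in knockout replicates 1, 4 and 5 and 0.596, 0.676 and 0.653 in control replicates 6, 8 and 9. The log2 fold changes of Tpx2 and Aurka were -0.99 and -0.30 as deposited. They were closer after the length and GC correction given below, at -0.82 and -0.53. Ckap2, a microtubule-binding protein gene (chromosome 8, 22168160 to 22185819), was at 11.9, 11.6 and 13.8 FPKM against 23.3, 23.5 and 19.3 FPKM, with little spread inside either group (limma, log2 fold change -0.78, SE 0.19, adjusted p = 0.0734). Hmmr, a spindle and hyaluronan-binding protein gene, was at 23.8 ± 0.987 against 38.03 ± 3.17 FPKM, and Tacc3, a clathrin-linked microtubule crosslinker gene, at 96.4 ± 5.48 against 151 ± 14.2 FPKM (limma, adjusted p = 0.0814 and 0.0818). Nusap1 and Ckap2l, genes of spindle microtubule-binding proteins, were at 62.02% and 65.3% of control (limma, adjusted p = 0.113 and 0.107). Ckap5, a microtubule polymerase gene, was at 23.1, 9.95 and 26.3 FPKM against 42.2, 40.4 and 37.8 FPKM, so the knockout libraries differed among themselves by more than the controls did. Its log2 fold change of -1.09 became -0.68 without knockout replicate 4. Troap, the gene of a spindle-associated adhesion partner protein, overlapped between groups (21.2 ± 2.32 against 27.1 ± 6.35 FPKM).

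Among cytokinesis genes, 3 of 4 were lower without overlap, against 21.8% of all genes, and Racgap1 overlapped. None passed, and the median log2 fold change was -1.01. Ect2, the RhoA activator that places the cleavage furrow (chromosome 3, 27097222 to 27153878), was at 17.004, 6.74 and 21.4 FPKM in knockout replicates 1, 4 and 5 and at 41.7, 45.1 and 30.5 FPKM in control replicates 6, 8 and 9. It had the largest fold change of the 42 genes but also a wide spread, knockout replicate 4 being far below the others (38.5% of control; limma, log2 fold change -1.44, SE 0.38, adjusted p = 0.08095; -0.98 without that library). Anln, the furrow scaffold anillin, was likewise lowest in knockout replicate 4, at 16.6, 6.695 and 16.8 FPKM against 29.7, 29.3 and 30.5 FPKM (log2 fold change -1.20, and -0.80 without knockout replicate 4). Prc1, which bundles the midzone microtubules (chromosome 7, 80294450 to 80316259), was at 51.5, 33.2 and 42.1 FPKM against 70.2, 72.6 and 80.8 FPKM (42.3 ± 9.18 against 74.5 ± 5.58 FPKM; limma, log2 fold change -0.82, SE 0.20, adjusted p = 0.0716). Racgap1, the centralspindlin subunit that recruits Ect2, was at 55.4, 43.02 and 66.2 FPKM against 62.8, 67.5 and 51.3 FPKM (log2 fold change -0.15, 95% interval -0.64 to 0.34).

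Foxm1, the transcription factor that activates many of these promoters, was low in every library. It stood at 3.23, 5.02 and 2.495 FPKM in knockout replicates 1, 4 and 5 and at 5.76, 4.801 and 4.74 FPKM in control replicates 6, 8 and 9. Knockout replicates 1 and 5 were below the controls and replicate 4 was inside their range (limma, log2 fold change -0.45, SE 0.25, adjusted p = 0.269).

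**Figure D2:**
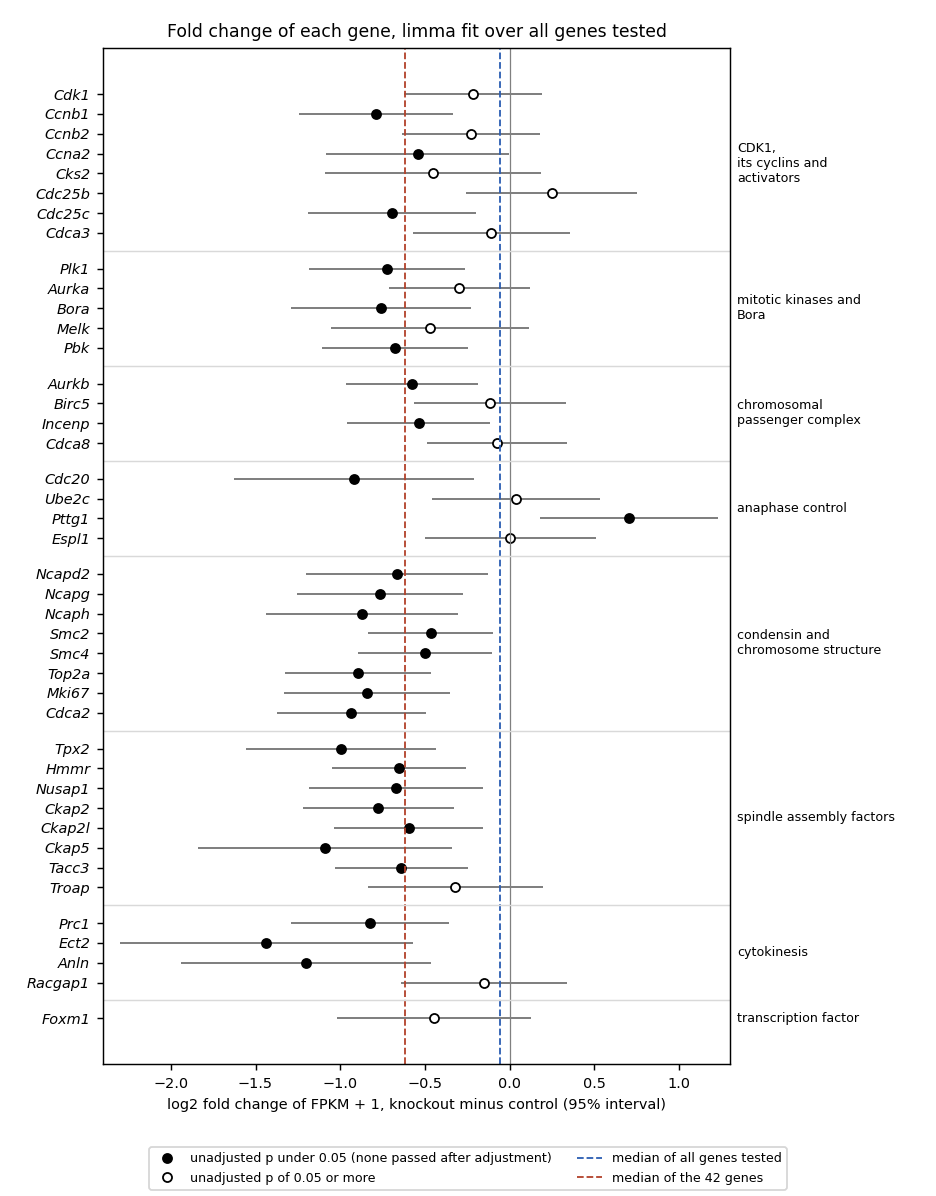
Each point is the log2 fold change of 1 gene (knockout minus control, on FPKM + 1) with its 95% interval from limma; filled points have an unadjusted p under 0.05, and dashed lines mark the medians of the 42 genes (-0.62) and of all genes tested (-0.06). Points sit left of 0 for 38 of 42 genes, from -1.44 for Ect2 to 0.71 for Pttg1.

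For the 42 genes, the knockout libraries differed more among themselves than the controls did. The median SD of log2(FPKM + 1) over the 42 genes was 0.23 within knockouts and 0.16 within controls, and 29 of 42 genes had the larger SD in knockouts. Spreads and library extremes over all genes are not given here. Those of the 42 genes are thus not shown to be particular to them. Knockout replicate 4 had the lowest value of all 6 libraries for 21 genes and the highest for 5 (Cdca3, Birc5, Cdca8, Ube2c and Pttg1). Against the mean of the other 2 knockouts on the log2 scale it was lower by the most for Ect2 (-1.38), Ckap5 (-1.23) and Anln (-1.20), and higher by the most for Pttg1 (0.70), Ncapd2 (0.65) and Foxm1 (0.65). The difference of replicate 4 from the other 2 knockouts went with transcript length over all genes (Spearman's rho -0.40, n = 9820 genes of these 3 libraries) and over the 42 (-0.22); its part in the results was not tested. Without it, the 42 genes kept a median of -0.60, against -0.06 for all genes tested, and 38 of 42 were lower. Control replicate 8 was the highest library for 19 genes. Without it the median was -0.56, against -0.05 for all genes tested, and 39 of 42 were lower. At an unadjusted p under 0.05, 18 of 42 were then lower. The share of all genes in each of these fits is not given here, so these counts stand without a background.

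**Figure D3:**
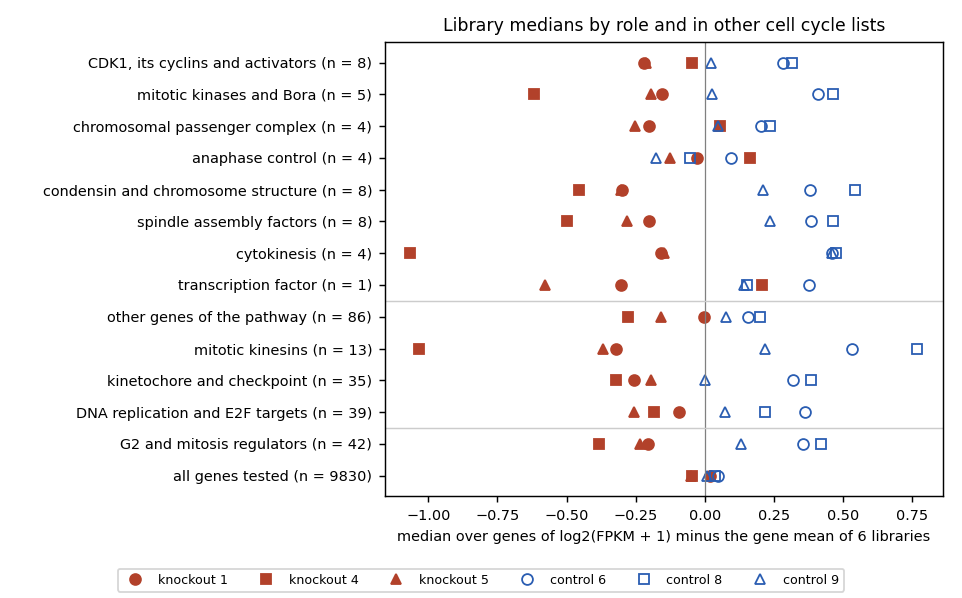
Each row is a gene list (roles of the 42 genes at the top, other cell cycle lists in the middle, the 42 genes and all genes tested at the bottom) and each point a library, as the median over its genes of log2(FPKM + 1) minus the gene mean over 6 libraries. Condensin, spindle, cytokinesis and kinase genes separate knockout (filled) from control (open) libraries, chromosomal passenger and anaphase genes do not, and all genes tested stay between -0.05 and 0.05.

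Transcript length and GC content moved with the comparison over the whole table. Across all genes with both values (9820), longer transcripts had lower log2 fold changes (Spearman's rho -0.40, over genes, which are not independent replicates and share the same 6 libraries), and GC-rich ones had higher (0.27). Among the 42 genes the same values were -0.26 and 0.38. The 21 genes with a longest transcript over the middle of the group (3346 bases) had a median log2 fold change of -0.67, and the 21 with shorter ones of -0.54. After each library was corrected for transcript length and GC content, both medians were -0.53, the median of all 42 was -0.53 and 37 of 42 were lower. At an unadjusted p under 0.05, 26 of 42 were then lower, against 15.4% of all genes.

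That correction changed the values of single genes in either direction. Differences shrank for Smc2 (log2 fold change -0.11 after correction, -0.47 before), Smc4 (-0.19, -0.50), Ncapg (-0.32, -0.77) and Cdk1 (-0.04, -0.22). They grew for Cks2 (-0.91, -0.45), Ccnb2 (-0.52, -0.23), Aurka (-0.53, -0.30) and Cdc20 (-1.25, -0.92). Cdca2, Ccnb1 and Tacc3 changed little (-0.81, -0.78 and -0.67), and Pttg1 stayed higher (0.48). With the libraries scaled to equal totals, which moved the all-gene median to -0.24, the median of the 42 genes was -0.82 and the distance between the medians was -0.58, against -0.56 as deposited.

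**Figure D4:**
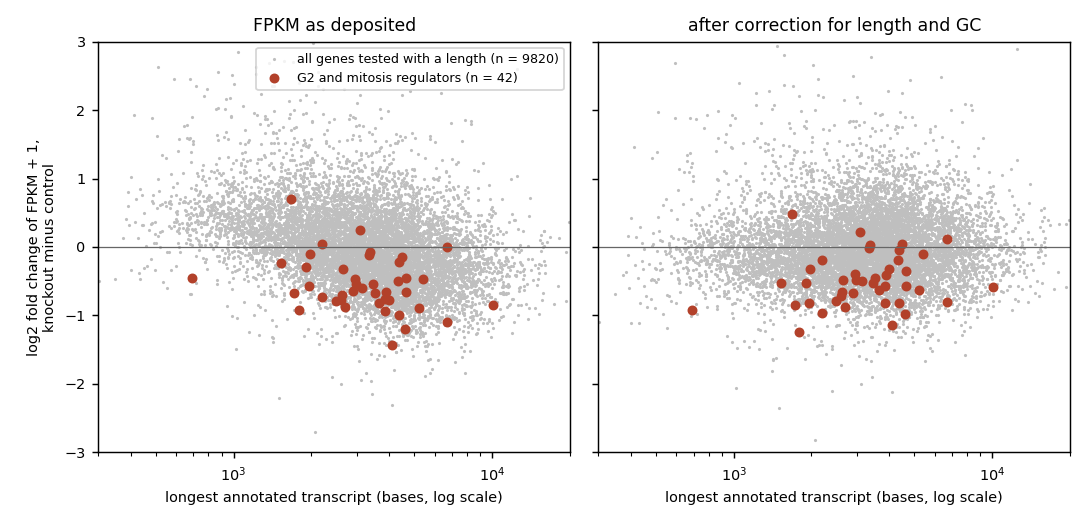
Log2 fold change (knockout minus control, on FPKM + 1) against the length of the longest annotated transcript on a log axis, for all genes tested with a length (grey) and the 42 genes (red), as deposited at left and after correction for length and GC content at right; genes beyond 3 in either direction are not drawn. The correction was fitted to these genes, so it removes the slope over all genes by design (rho -0.40 at left, 0.02 at right). Among the 42 genes rho is -0.26 at left and 0.19 at right, where 37 of the 42 lie below 0.

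Some of the genes share exon bases with neighbours on the opposite strand, and the sources used here do not state strand use in counting. Shares above 10% were found for Ube2c (22.8%, with Tnnc2), Ncapg (13.4%, with Lcorl), Cdc25c (12.7%, with Gm3550), Ccna2 (12.5%, with Exosc9) and Prc1 (11.1%, with Rccd1). If strand was not used, reads from those shared bases could count for either gene, so the values of these 5 genes are less certain.

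Of 90 other listed genes of the same machinery 86 were tested; 1 fell and 1 rose, a share near the 1.9% of all genes that passed. Fitted levels were lower for 60 of 86 and higher for 26, where 54% of all genes were lower, and the median log2 fold change was -0.29. Ccnf, which encodes cyclin F, the substrate receptor of a ubiquitin ligase active in G2, fell: it was at 23.3, 12.3 and 21.7 FPKM in knockout replicates 1, 4 and 5 and at 48.7, 52.1 and 42.3 FPKM in control replicates 6, 8 and 9 (19.1 ± 5.96 against 47.7 ± 4.999 FPKM; limma, log2 fold change -1.32, SE 0.26, adjusted p = 0.0458). Plk2, a polo-like kinase gene induced by stress and p53, rose: it was at 8.03, 6.88 and 8.103 FPKM against 2.599, 2.34 and 2.97 FPKM (7.67 ± 0.683 against 2.64 ± 0.316 FPKM; limma, log2 fold change 1.25, SE 0.20, adjusted p = 0.0283). For both genes the groups were far apart in all 6 libraries, but neither call held under every alternative: without 1 library, and so with fewer samples, adjusted p ran from 0.0568 to 0.202 for Ccnf and from 0.0404 to 0.159 for Plk2, which passed only without control replicate 9.

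The next 4 genes by p were lower and did not pass. Esco2, which acetylates cohesin so that it holds sisters together, was at 7.92, 5.62 and 10.8 FPKM against 20.4, 19.7 and 17.4 FPKM (limma, adjusted p = 0.05197). Fbxo5, the Emi1 inhibitor of the anaphase-promoting complex, was at 25.5, 22.6 and 25.9 FPKM against 43.3, 42.3 and 40.4 FPKM (limma, adjusted p = 0.0626). Ncapd3, a condensin II subunit gene, was at 12.3, 7.099 and 14.6 FPKM against 26.9, 26.6 and 22.01 FPKM (limma, adjusted p = 0.0665), and the checkpoint kinase gene Ttk at 7.12, 4.45 and 8.11 FPKM against 15.6, 14.5 and 12.6 FPKM (limma, adjusted p = 0.0669). None of these 4 overlapped between groups, which follows largely from their choice by low p. Of all 86 tested, 36 did not overlap with knockout lower and 6 with knockout higher, against 21.8% and 14.5% of all genes.

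By class, all 15 cohesin genes were lower (median -0.55, none passed). Among 17 genes of the anaphase-promoting complex and its regulators, 10 were lower and 7 higher (median -0.20), and among 12 tested MuvB, DREAM and pocket protein genes 10 were lower (median -0.42), with none past the threshold in either class. Cytokinesis genes outside the members were split, 6 lower and 8 higher (median 0.09). The 3 condensin II genes disagreed: Ncapd3 was at 44.99% and Ncapg2 at 44.1% of control, whereas Ncaph2, named after its values were seen, was at 110.2, 127 and 91.5 FPKM against 59.9, 70.9 and 64.5 FPKM, higher in every knockout library (limma, log2 fold change 0.73, SE 0.19, adjusted p = 0.0781).

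**Figure D5:**
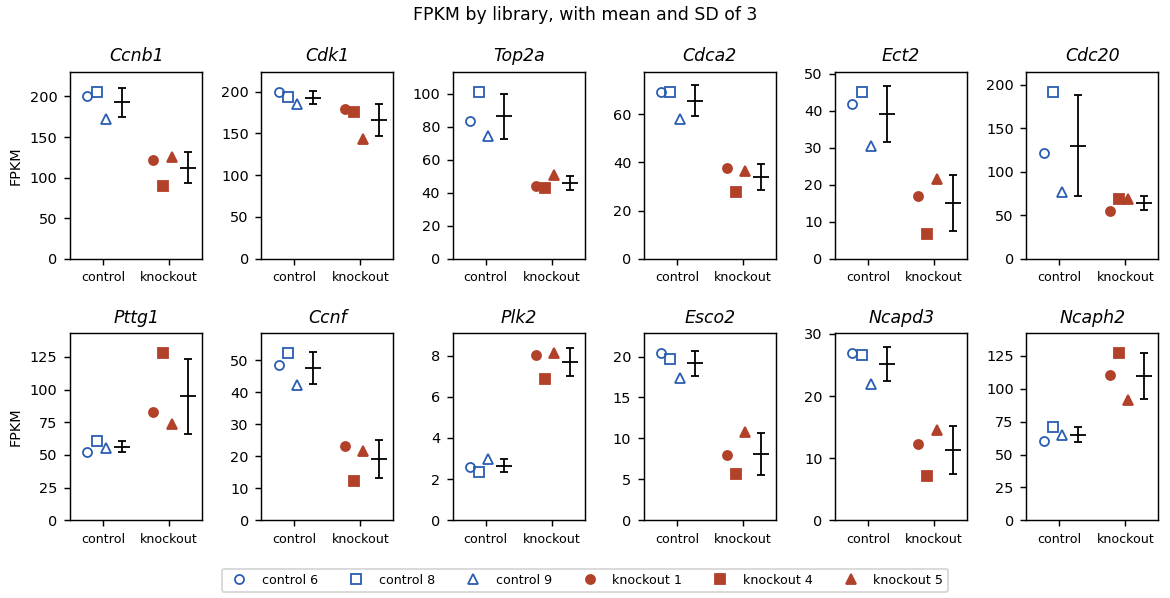
FPKM of 12 genes in each library (open, control; filled, knockout), with the mean and SD of 3 libraries beside each group; axes start at 0. Ccnb1, Top2a, Cdca2, Ect2, Cdc20, Ccnf, Esco2 and Ncapd3 are lower in all 3 knockout libraries. Cdk1 is also lower in all 3, by little, and Pttg1, Plk2 and Ncaph2 are higher in all 3.

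The median of the 42 genes lay between those of other cell cycle lists. Over all genes 54% were lower, 21.8% were lower without overlap and 0.519% fell. All 13 mitotic kinesin genes were lower without overlap, with a median log2 fold change of -1.05, and 3 fell. These were Kif20a, at 35.9 ± 10.3 against 83.5 ± 7.89 FPKM, Kif20b, at 17.9 ± 6.22 against 51.8 ± 9.96 FPKM, and Kif23, at 18.7 ± 1.502 against 40.2 ± 8.43 FPKM (limma, log2 fold changes -1.23, -1.52 and -1.05, adjusted p = 0.0465, 0.0444 and 0.0467). Of 35 kinetochore and checkpoint genes 27 were lower, 19 without overlap, with a median of -0.48 and 1 that fell, the kinetochore scaffold gene Knl1 (14.5 ± 2.08 against 37.8 ± 7.15 FPKM; limma, log2 fold change -1.32, SE 0.22, adjusted p = 0.0294). Of 39 tested DNA replication genes 35 were lower, 23 without overlap, with a median of -0.43 and 1 that fell, the cyclin E2 gene Ccne2 (16.5 ± 5.02 against 45.3 ± 4.11 FPKM; limma, log2 fold change -1.44, SE 0.25, adjusted p = 0.0353). For the kinetochore and replication lists, 1 call each is a small share. After the length and GC correction Kif20a still passed and the other 4 of these 5 genes did not, at log2 fold changes from -1.15 to -0.87 over the 5. Without control replicate 9 Kif20b and Knl1 passed, without knockout replicate 5 only Knl1 did, and without any other 1 library none of the 5 did; their log2 fold changes then ran from -1.74 to -0.89. Whether the 42 genes differed from these lists was not tested.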

How the data were processed

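RNA-seq of 6 mouse cell libraries was used, in the groups their labels give. The authors deposited FPKM values for gene symbols. FastQC, STAR 2.5.2b and the mm10 build are named in the submitters' processing notes. The counting tool, annotation, strand use and filters were not given in the sources used here. No count model was run, since FPKM is no count. Genes at 1 FPKM or more in at least 3 libraries (9830) were tested on log2(FPKM + 1) with limma 3.58.1 in R 4.3.3 (intensity trend, two-sided, Benjamini-Hochberg, threshold 0.05). "Fell" and "rose" are used only past that threshold. A fold change computed after adding 1 to FPKM is too small for weakly expressed genes. Errors are SD of 3 libraries.

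Depth was estimated from genes with 1 annotated transcript (4154), where low values should be whole multiples of 1 fragment: it was 33500000 to 50900000 fragments in knockout libraries, lowest in replicate 5, and 45300000 to 60700000 in control libraries. Between 58.9% and 69.7% of those products came within 0.1 of an integer, so reads could not be recovered from FPKM. A depth not fitted to the values would give 20%. Each depth was the best fit to these same values, so 20% is not its chance level. At those depths and the longest transcripts, the least covered of the 42 genes had about 389 fragments in a library. By this estimate counting error is small beside the spread between libraries.

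Positions, lengths and GC content came from GENCODE M21 (GRCm38; 21414 genes matched by symbol, 75 by synonym, 26 not at all), and promoters from RefSeq (GRCm38.p6). Of the promoter windows of the 42 genes, 33 of 34 had bases after the start inside a sense transcript. The members, lists, named genes and settings were chosen with earlier results of these data known. In full are given the 2 genes of each role with the lowest p, plus Foxm1, and of the other genes of the pathway those past the threshold, with values for the next 4; the calls in the kinesin, kinetochore and replication lists are named as well. Others were named after their values were seen. The test was also tried on simulated data with known fold changes. It recovered 0% of 67 genes changed 1.5-fold, 25.4% of 67 changed 2-fold and 78.8% of 66 changed 4-fold. Of its 72 calls 3 were false. Noise there was drawn independently for each gene and library. Shifts shared by many genes of a library were thus not simulated, and false calls from them are not counted. At changes of 2-fold or less most changed genes were thus missed, so a gene that did not pass is not shown to be unchanged. Alternatives were another pseudocount, filters, scalings, array weights, a length and GC correction (splines, 4 degrees of freedom), leaving out chromosome 15, a looser threshold and leaving out each library. Other tools were Python 3.11.15, numpy 2.4.6, pandas 2.3.3, scipy 1.17.1 and matplotlib 3.10.9.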

Additional observations from a re-analysis of the deposited data

How the results depend on the processing

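The number of the 42 genes past the threshold was 0 with a pseudocount of 0.1, with median-of-ratios scaling, without a filter, for genes averaging 5 FPKM or more (41 tested), after the length and GC correction, without chromosome 15 (39 genes) and without any 1 library. It was 1 with equal totals (Top2a, adjusted p = 0.0488), 1 with quantile normalization (Cdca2, 0.0446), 18 at an adjusted p under 0.1 and 36 with array weights, 34 of them lower. Array weights gave control replicate 8 a weight of 7.21 and knockout replicate 4 one of 0.207 and called 4154 of all genes. The median of the 42 genes stayed between -0.66 and -0.53 except with equal totals, where it was -0.82. Over all genes, 187 calls became 120 with equal totals, 97 at a mean of 5 FPKM or more, 23 without a filter and from 20 to 197 without 1 library (37 without knockout replicate 1, 20 without knockout replicate 4, 92 without control replicate 6 and 25 without control replicate 8). Of the other genes of the pathway, 2 calls became 42 with array weights and 3 after the length and GC correction. They became 0 with equal totals or without a filter, and 1 at a mean of 5 FPKM or more or with a pseudocount of 0.1. Without 1 library there were 0 to 1. Without knockout replicate 5 that 1 call was Esco2 (limma, adjusted p = 0.046), which did not pass with all 6 libraries. The 5 calls among kinesin, kinetochore and replication genes became 55 with array weights, 1 after the length and GC correction, 3 at a mean of 5 FPKM or more or with a pseudocount of 0.1, 0 without a filter and 0 to 2 without 1 library. The cause of these shifts was not tested; leaving out a library tests fewer samples.

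Signs turned for 4 genes near 0. Cdca8 was at 0.024 after the length and GC correction and from -0.17 to 0.030 without 1 library. Ube2c was at -0.25 with array weights, -0.17 with equal totals, -0.19 after the correction, -0.18 with quantile normalization and from -0.15 to 0.18 without 1 library. Espl1 was at -0.18 with equal totals and from -0.11 to 0.10 without 1 library, and Racgap1 at 0.048 after the correction and from -0.29 to 0.011 without 1 library. No paired analysis was possible because the groups share no replicate number. Single calls also ended: Ccnf with equal totals (adjusted p = 0.0533), at a mean of 5 FPKM or more (0.0505), with a pseudocount of 0.1 (0.0544), without a filter (0.126) and without any 1 library; Plk2 with equal totals (0.056), without a filter (0.0961) and without any 1 library other than control replicate 9 (0.0515 to 0.159).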
